A study of Mus musculus with 4 samples.

Results

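The cells described here are those that the authors' annotation of orthotopic CT26 tumors named intestinal cells, chosen by that name alone. They numbered 220 of 17674 cells, 153 of them from Cyp51-KO tumors and 67 from sg-Ctrl tumors. CT26 is a mouse colon carcinoma line of BALB/c origin. It was injected orthotopically, that is at the organ it came from, in male BALB/c mice aged 8 to 10 weeks, and tumors were taken at day 26. In the Cyp51-KO group the injected line carried a CRISPR guide against Cyp51, the lanosterol demethylase of cholesterol synthesis, and in the sg-Ctrl group a control guide. Both lines were sorted for the blue fluorescent protein (BFP) of the guide vector and were not stated to be single clones. The host mice of both groups, and with them any host intestinal epithelium, carried no guide. Cells from 12 tumors of the sg-Ctrl group and 9 of the Cyp51-KO group were sorted and mixed in set parts, with 10% tumor cells (CD45- BFP+), 40% T cells (CD45+ CD3+) and 50% of any CD45+ cell, and then sequenced as single cells by a 5′ droplet method.

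The lining of the intestine is a single sheet of epithelial cells, mostly absorptive cells and mucus-secreting goblet cells, which stem cells at the base of the crypts replace continuously. These cells carry the adhesion protein Epcam and keratins such as Krt8, which build the filaments of simple epithelia, and they lack the leukocyte protein CD45. A host intestinal cell with neither CD45 nor BFP is in none of the 3 sort gates as labelled.

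Whether the name fits could not be read from the measurements, since the table gives totals per cell and no value for Epcam, Krt8 or any other gene. The leading genes that the authors list for the cluster, over both groups, include neither marker. They are the ribosomal protein genes Rps2, Rplp1, Rps12 and Rpl28, the nucleolar protein gene Npm1, the calcium-binding protein gene S100a6, the galectin gene Lgals1, the reductase gene Cyb5r3, the tropomyosin gene Tpm1 and Def8. Def8 is also among the leading genes of the malignant cluster. The name intestinal cells is therefore kept below as the authors' label for the cluster and not as a cell type shown by these data. The reference throughout was the cluster named malignant cells, with 2428 Cyp51-KO and 729 sg-Ctrl cells. These were the other epithelial cells of the table, and the 18 remaining clusters were immune cells.

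Each cell was tied to its group and not to a library, although 2 samples were listed per group, so each group was 1 set of cells and the groups could not be tested against each other. No cell barcode occurred more than once within a group, 98 occurred in both groups, and 2 of these belonged to intestinal cells. The 10484 Cyp51-KO cells held 156168274 unique molecular identifiers (UMIs, one for each captured RNA molecule) and the 7190 sg-Ctrl cells held 95249095. Per cell the order was the other way, with medians of 6508.5 UMIs for Cyp51-KO and 7822.5 for sg-Ctrl. Intervals are exact 95% intervals over cells, binomial (Clopper-Pearson) for shares and from ordered values for medians. Counting error is all they cover, and the spread among tumors, sorts and libraries is unknown.

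Intestinal cells were a larger part of all sequenced cells in Cyp51-KO tumors and a smaller part of the epithelial cells. Over all cells the share was 0.932% for sg-Ctrl (0.723 to 1.18%) and 1.46% for Cyp51-KO (1.24 to 1.71%), which gave a log2 ratio of 0.65 and intervals that lay apart. Set against immune cells alone, intestinal cells numbered 1.94 per 100 immune cells with the knockout (1.64 to 2.27) and 1.05 without it (0.811 to 1.33). These intervals were also apart. With 1000 UMIs or more and 2.5% mitochondrial UMIs or less, the intervals over all cells overlapped (Cyp51-KO 0.928 to 1.36%, sg-Ctrl 0.575 to 1.01%). They overlapped as well with 5000 UMIs or more (0.590 to 1.06% and 0.299 to 0.692%). The log2 ratios were then 0.55 and 0.78, and the intervals over immune cells stayed apart. Among epithelial cells the direction turned. There 153 of 2581 Cyp51-KO cells were intestinal (5.93%, 5.05 to 6.91%), and 67 of 796 sg-Ctrl cells (8.42%, 6.58 to 10.6%). The log2 ratio was -0.51, and the intervals overlapped. This value moved with the choice of cells. Without the 5% of cells with the most UMIs in each group it was -0.996, with intervals apart (7.34%, 6.25 to 8.54%, against 14.6%, 11.5 to 18.2%). Of the epithelial cells left, 152 of 2072 in Cyp51-KO and 67 of 458 in sg-Ctrl tumors were intestinal. Nearly all those removed were malignant, a larger part of them in sg-Ctrl tumors, and this shift follows from that. Among cells of 1000 UMIs or more that had 2.5% mitochondrial UMIs or less the log2 ratio was -0.82, also with intervals apart (4.51%, 3.72 to 5.41%, against 7.98%, 6.01 to 10.3%). That filter also took a larger part of the malignant cells in sg-Ctrl tumors. Among cells of 5000 UMIs or more the log2 ratio was -0.71, and the intervals overlapped (1.98%, 1.46 to 2.61%, against 3.23%, 2.08 to 4.77%). Without cells under 0.1% mitochondrial, a setting added after the data were seen, the log2 ratio was -0.036. This setting dropped 42 of 153 Cyp51-KO and 33 of 67 sg-Ctrl intestinal cells, so its shift follows from its construction.

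Malignant cells moved with these shares. They made up 23.2% of Cyp51-KO cells (22.4 to 24.0%) and 10.1% of sg-Ctrl cells (9.45 to 10.9%), so that 15.9 and 10.9 malignant cells stood beside each intestinal cell. Sorted tumor cells were added at a set part of 10% in both groups, so these shares depend on the mixing and are no measure of the tissue. The sg-Ctrl share lay near that part and the Cyp51-KO share well above it, and the reason was not tested. The upper limit on genes per cell also lay close to many malignant cells. Of the malignant cells, 6.67% with the knockout and 21.8% without it had 6500 genes or more, under a limit of 7000. No intestinal cell had as many. How many malignant cells that limit removed from the denominator was not tested.

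**Figure D1:**
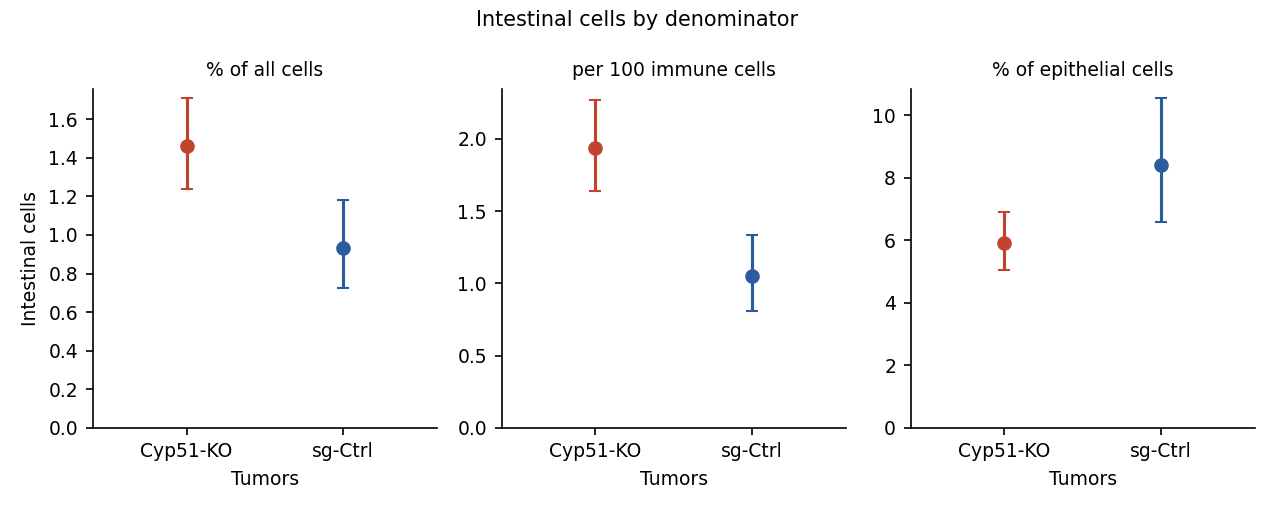
Intestinal cells in Cyp51-KO and sg-Ctrl tumors as a percentage of all cells, per 100 immune cells, and as a percentage of epithelial cells, with exact 95% binomial intervals as bars. The Cyp51-KO value is higher over all cells (1.46% against 0.932%) and over immune cells, and lower over epithelial cells (5.93% against 8.42%), where the intervals overlap.

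Intestinal cells held little RNA. Their UMIs ran from 500 to 66334 in Cyp51-KO tumors, with quartiles of 1234 and 6316 and a median of 3006 (2053 to 3658). In sg-Ctrl tumors they ran from 500 to 25209, with quartiles of 1354 and 7342 and a median of 2640 (1932 to 4360). The intervals of the groups overlapped (log2 ratio 0.19, range -1.09 to 0.92). The median malignant cell, with 39624 UMIs for Cyp51-KO and 45683 for sg-Ctrl, had 13.2 and 17.3 times as many.

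Intestinal cells also had fewer genes detected than malignant cells. The median intestinal cell had 783 genes (687 to 910) in Cyp51-KO tumors and 890 (692 to 1197) in sg-Ctrl tumors, against 4926.5 and 5697 in malignant cells. The most genes in any intestinal cell were 6187 for Cyp51-KO and 3044 for sg-Ctrl. In sg-Ctrl tumors all 67 intestinal cells lay below the 5th percentile of malignant cells (3186 genes), and in Cyp51-KO tumors 132 of 153 lay below theirs (2171 genes). The sg-Ctrl cells thus did not reach into the bulk of the malignant cells of their own group in genes detected, and 21 of the Cyp51-KO cells did. This contrast depends on the limit, since that of Cyp51-KO was lower and the sg-Ctrl maximum of 3044 genes lies above it.

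A part of the intestinal cells lay near the lower limit for a cell, which was 500 UMIs. From 500 to under 600 UMIs there were 8 of 153 Cyp51-KO cells (5.23%) and 3 of 67 sg-Ctrl cells (4.48%). Immune cells had 1.40% and 0.328% there. Under 1000 UMIs were 28 of the 153 Cyp51-KO cells (18.3%, 12.5 to 25.4%) and, from sg-Ctrl tumors, 10 of 67 (14.9%, 7.40 to 25.7%). The share under 1000 UMIs was 5.83% and 1.44% in immune cells, and 0.0824% and 0.274% in malignant cells. Some immune clusters came near it or above it, with 29.6% and 13.6% in mast cells and 20.8% and 4.49% in Th1-like cells. At the other end, 11 Cyp51-KO cells (7.19%, 3.64 to 12.5%) and 2 sg-Ctrl cells (2.99%, 0.364 to 10.4%) had 20000 UMIs or more. Intestinal cells held 0.621% of all UMIs of the Cyp51-KO group and 0.342% of those of the sg-Ctrl group.

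Which name an epithelial cell carried went with its UMIs. From 500 to under 2000 UMIs, intestinal cells were 63 of 70 epithelial cells in Cyp51-KO tumors (90.0%, 80.5 to 95.9%) and 27 of 31 in sg-Ctrl tumors (87.1%, 70.2 to 96.4%). From 20000 to under 50000 UMIs they were 10 of 1088 (0.919%) and 2 of 318 (0.629%). At 50000 UMIs or more there was 1 intestinal cell among 828 epithelial cells in Cyp51-KO tumors. In sg-Ctrl tumors there were 0 of 310, which allows a share of up to 0.968%. The shallow epithelial cells of both groups were therefore nearly all called intestinal, and the deep ones nearly all malignant.

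The groups differed in this share mainly in 1 class. From 5000 to under 10000 UMIs, intestinal cells were 20 of 140 epithelial cells in Cyp51-KO tumors (14.3%, 8.95 to 21.2%) and 17 of 27 in sg-Ctrl tumors (63.0%, 42.4 to 80.6%), with intervals apart. Both parts of the share differed, since this class held 13.1% of Cyp51-KO and 25.4% of sg-Ctrl intestinal cells, and 4.94% and 1.37% of malignant cells. In the other 5 classes the intervals overlapped. From 2000 to under 5000 UMIs the shares were 49.4% (38.4 to 60.5%) and 72.7% (49.8 to 89.3%).

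**Figure D2:**
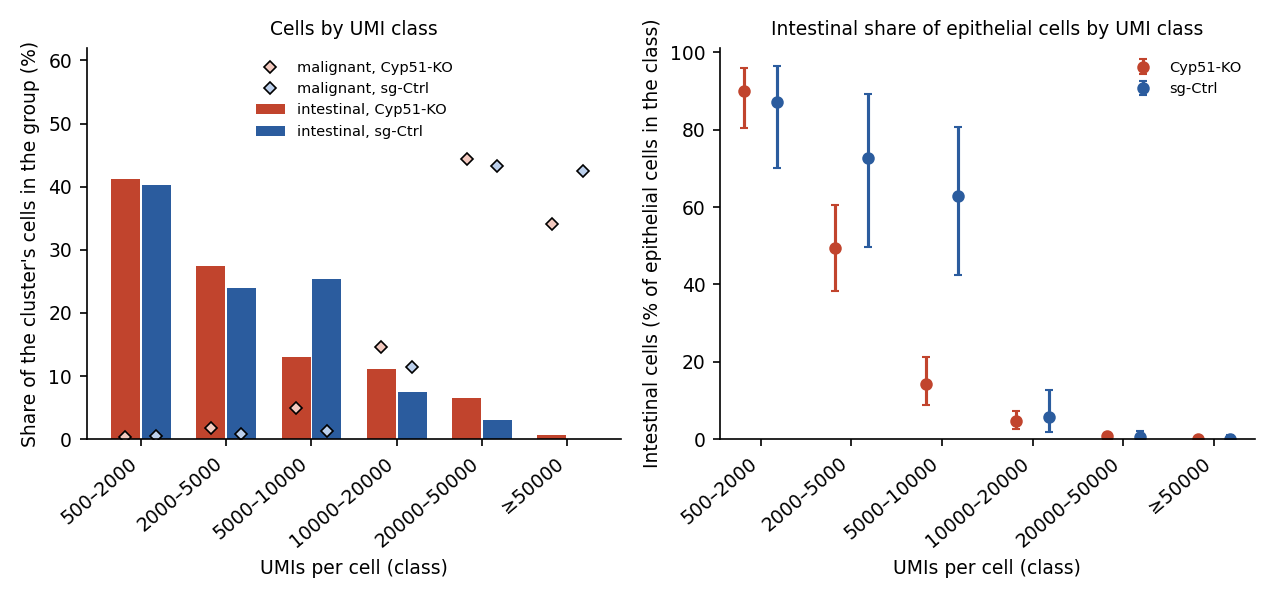
Left, the percentage of each cluster's cells in 6 classes of UMIs per cell (bars, intestinal; diamonds, malignant) in Cyp51-KO and sg-Ctrl tumors. Right, intestinal cells as a percentage of the epithelial cells of each class, with exact 95% binomial intervals. The share falls from 90.0% and 87.1% in the lowest class to 0.121% and 0 in the highest, and the intervals of the groups are apart from 5000 to under 10000 UMIs.

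Among the 20 clusters, both groups together, intestinal cells had the fewest genes at the median (810), which held within each group. By median UMIs (2761) they came second from the lowest, a place they also held within sg-Ctrl tumors, while in Cyp51-KO tumors 6 clusters had fewer. Immune cells had a median of 4373 UMIs with the knockout and 7131.5 without it, so this rank moves with the depth of the other clusters. The UMIs of intestinal cells were widely spread. The upper quartile was 5.12 times the lower in Cyp51-KO cells and 5.42 times in sg-Ctrl cells, against 2.55 and 2.21 times in malignant cells. Neutrophils spread more in Cyp51-KO tumors (8.51 times) and less in sg-Ctrl tumors (2.53 times).

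The clusters most like intestinal cells in median UMIs and genes together were not the same in the groups. With all cells pooled they were Th1-like cells (2777 UMIs, 1159 genes), mast cells (1935 UMIs, 873 genes) and B cells (2998.5 UMIs, 1273.5 genes). In UMIs, Th1-like cells lay below intestinal cells in the knockout (1860 against 3006) and above them in the control (4214.5 against 2640). Their median genes were 882 in the knockout and 1527.5 in the control, against 783 and 890 for intestinal cells. Within Cyp51-KO tumors the closest were CD8 Temra cells (3005 UMIs, 1210 genes), and within sg-Ctrl tumors mast cells (2136 UMIs, 948 genes) and then neutrophils (3903 UMIs, 983 genes). Mast cells were the second closest in the knockout as well (1785 UMIs, 811 genes). In mitochondrial UMIs the pooled median of intestinal cells was 0.548%, and only neutrophils had a lower one, 0.282%, an order that held in each group. Mitochondrial RNA is read from the genome of the mitochondria, so its share gives the part of a cell's captured RNA that comes from them.

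**Figure D3:**
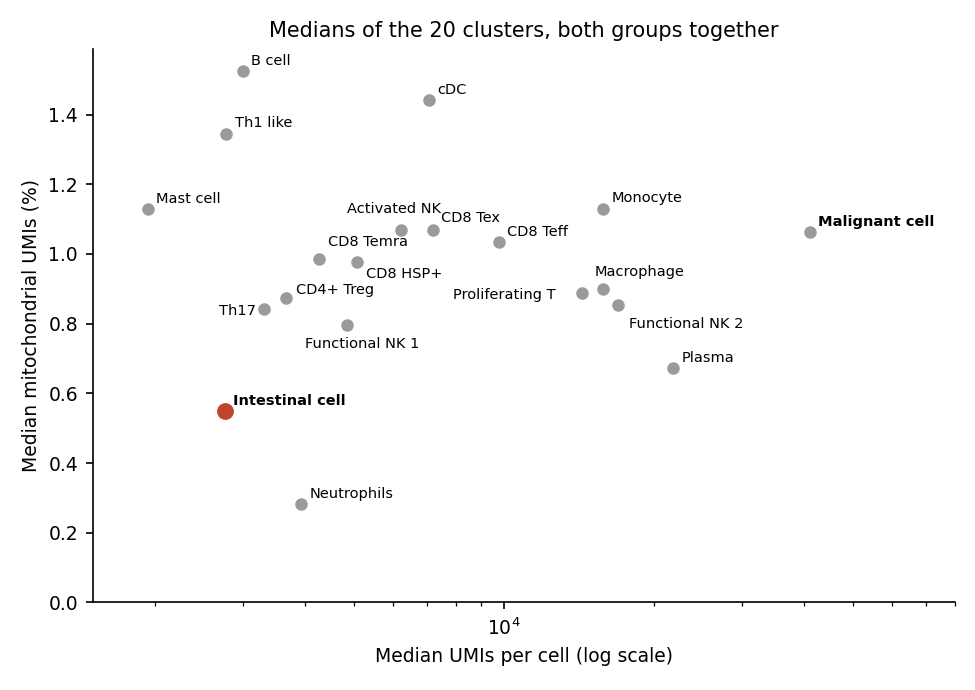
Median UMIs per cell (log scale) against the median mitochondrial percentage for the 20 clusters, cells of both groups together, 1 point for each cluster. Intestinal cells lie at 2761 UMIs and 0.548%, below every cluster but neutrophils in mitochondrial percentage, and malignant cells lie far to the right at 40941 UMIs.

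Mitochondrial UMIs divided the intestinal cells further. The median was 0.629% in Cyp51-KO tumors (0.390 to 0.865%) with quartiles of 0.0580 and 1.34%, and 0.171% in sg-Ctrl tumors (0.0668 to 0.837%) with quartiles of 0.0367 and 1.13%. These intervals overlapped (difference 0.46 percentage points, range -0.45 to 0.80). In malignant cells the order was the other way, 0.95% with the knockout and 1.55% without it. Summed over cells, the mitochondrial share of intestinal UMIs came to 1.11% for Cyp51-KO and 0.741% for sg-Ctrl, and that of malignant UMIs was 0.960% and 1.57%.

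No mitochondrial UMI at all was found in 33 of 153 Cyp51-KO intestinal cells (21.6%, 15.3 to 28.9%) and in 14 of 67 sg-Ctrl cells (20.9%, 11.9 to 32.6%). In malignant cells this share was 0.412% and 0.823%. Under 0.1% were 42 Cyp51-KO cells (27.5%, 20.6 to 35.2%) and 33 sg-Ctrl cells (49.3%, 36.8 to 61.8%), with intervals apart. Over both groups 34.1% of intestinal cells were under 0.1%, the highest share of the 20 clusters, as it was within each group. Neutrophils followed with 27.3%, and the other 18 clusters had at most 1.03%.

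Cells of like depth were then compared. Under 2000 UMIs, 38.1% of the intestinal cells of Cyp51-KO tumors (24 of 63, 26.1 to 51.2%) and 55.6% of those of sg-Ctrl tumors (15 of 27, 35.3 to 74.5%) were under 0.1% mitochondrial. Immune cells other than neutrophils had 1.51% and 2.27% there. Neutrophils had 51.9% and 44.4%, with intervals that overlapped those of intestinal cells in both groups. From 2000 to under 10000 UMIs the intestinal shares were 29.0% (18.2 to 41.9%) and 48.5% (30.8 to 66.5%), against 4.29% and 18.8% in malignant cells and 5.49% and 38.2% in neutrophils. In this class the intestinal interval lay above both others with the knockout, and overlapped both in sg-Ctrl tumors. From 10000 UMIs the share was 0 of 28 cells in Cyp51-KO tumors, which allows up to 10.7%, and 2 of 7 cells in sg-Ctrl tumors.

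Some intestinal cells lay at the other end of the mitochondrial scale. Over 3% were 15 Cyp51-KO cells (9.80%, 5.59 to 15.7%) and 3 sg-Ctrl cells (4.48%, 0.933 to 12.5%). Of the 15 Cyp51-KO cells, 11 had under 2000 UMIs. The authors' upper limit was 5% mitochondrial UMIs, and 9 Cyp51-KO cells and 1 sg-Ctrl cell had 4% or more.

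**Figure D4:**
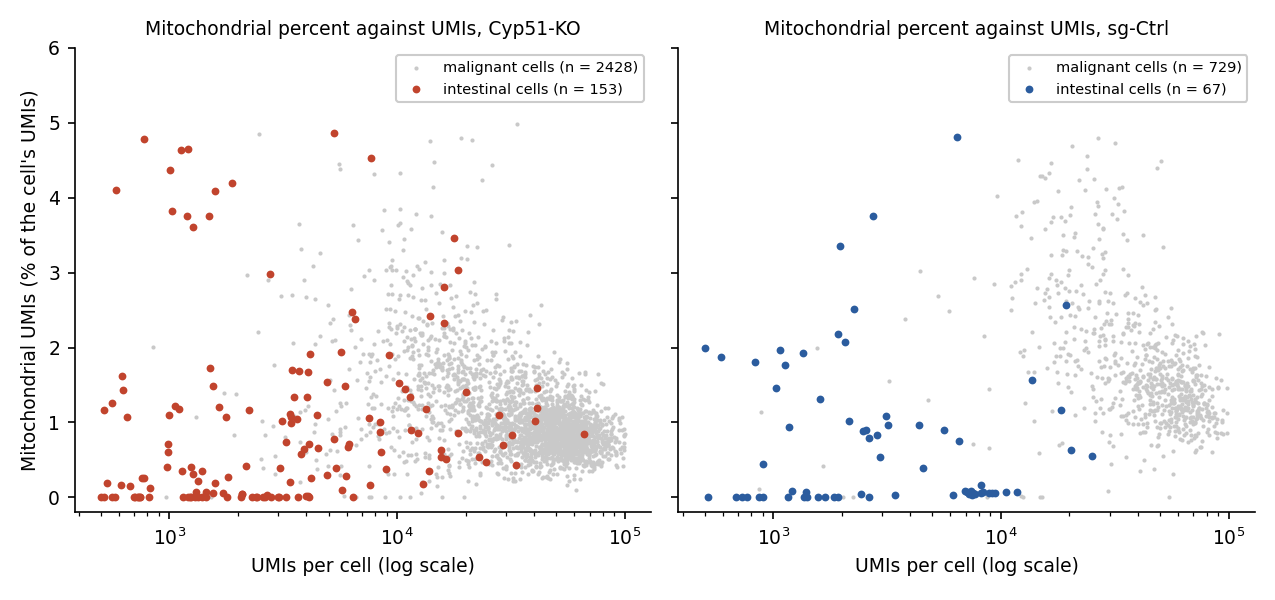
Mitochondrial UMIs as a percentage of the cell's UMIs against UMIs per cell (log scale), 1 point for each cell, intestinal cells in color over malignant cells in grey. Intestinal cells line the axis near 0 in both groups, and in sg-Ctrl tumors 16 cells gather there between 6184 and 11781 UMIs.

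A compact set of cells stood out in sg-Ctrl tumors, a set described after its values were seen. Between 6000 and 12000 UMIs, 16 of the 18 intestinal cells of sg-Ctrl tumors had under 0.2% mitochondrial UMIs. They had 6184 to 11781 UMIs (median 7923.5), 2007 to 3044 genes (median 2322) and 2 to 14 mitochondrial UMIs each, or 0.0268 to 0.171%. In Cyp51-KO tumors 2 of the 17 intestinal cells of this range were under 0.2%, and these had 497 and 1162 genes. The other 15 had 0.381 to 4.53% mitochondrial UMIs. In the same range and limit were 28 of 72 neutrophils of sg-Ctrl tumors, with a median of 1286.5 genes, and 1 of 14 malignant cells.

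These 16 cells were 23.9% of the sg-Ctrl intestinal cells. The values without them are a description only, since the set was chosen by its low mitochondrial UMIs and its UMI range, and leaving out 16 sg-Ctrl and 2 Cyp51-KO cells raises the sg-Ctrl mitochondrial median and lowers its share in that UMI class by construction. The sg-Ctrl median number of genes falls in the same way, since each of the 16 had 2007 genes or more, above the median of 890. Malignant cells of the same range and limit were kept. When intestinal cells of this kind were left out of both groups, mitochondrial UMIs had a median of 0.640% for Cyp51-KO and 0.837% for sg-Ctrl, and the median number of genes was 783 and 692. Both orders were the reverse of those with all cells. Shares under 0.1% mitochondrial became 27.2% and 35.3%. In the class from 5000 to under 10000 UMIs, intestinal cells became 18 of 138 epithelial cells in Cyp51-KO tumors (13.0%, 7.92 to 19.8%) and 3 of 13 sg-Ctrl ones (23.1%, 5.04 to 53.8%), and the intervals overlapped. The share over all cells was then 1.44% and 0.711%, and that over epithelial cells 5.85% (4.98 to 6.83%) and 6.54% (4.91 to 8.51%), a log2 ratio of -0.16 in place of -0.51.

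Genes were also compared at equal UMIs, since more UMIs reveal more genes. Each intestinal cell was set against the median malignant cell of its group in the same bin of 0.2 in log10 UMIs. In Cyp51-KO tumors 82 of 153 cells had enough malignant cells in their bin, and 59 of the 82 had fewer genes than that median. The median log2 ratio was -0.27 (-0.49 to -0.12), with quartiles of -1.07 and 0.05 and a lowest value of -2.58. In sg-Ctrl tumors only 7 of 67 cells could be compared, all lower, with a median of -0.90 (-2.15 to -0.16). With malignant cells of both groups as the reference, 35 sg-Ctrl cells, among them the compact set of 16, could be compared. Their median was -0.0019 (-0.084 to 0.061). That reference was mostly of Cyp51-KO cells, with 120 Cyp51-KO and 10 sg-Ctrl malignant cells from 5000 to under 10000 UMIs. The median genes of these were 2126.5 and 2512.5, against 2283 in sg-Ctrl intestinal cells of that class. The added cells and the changed reference cannot be told apart. Against all other cells of the group every intestinal cell could be compared, a reference chosen after the data were seen. The median log2 ratio was then -0.21 (-0.30 to -0.18) for Cyp51-KO and -0.18 (-0.22 to -0.11) for sg-Ctrl, and 126 of 153 and 55 of 67 cells were lower.

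A minority of cells had very few genes for their UMIs. With 5000 UMIs or more, 10 of 48 intestinal cells of Cyp51-KO tumors (20.8%, 10.5 to 35.0%) and 2 of 24 of sg-Ctrl tumors (8.33%, 1.03 to 27.0%) had under 1000 genes. The Cyp51-KO cells of this kind had as few as 378 genes, and as many as 18515 UMIs. Of malignant cells at this depth, 1 of 2378 in Cyp51-KO tumors had under 1000 genes, and 0 of 719 in sg-Ctrl tumors, which allows up to 0.417%. Of immune cells it was 0 of 3574 in Cyp51-KO tumors, which allows up to 0.0839%, and 8 of 4410 in sg-Ctrl tumors. The limit of 1000 genes was chosen after the values were seen, and which genes took up the UMIs of these cells was not analysed here.

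**Figure D5:**
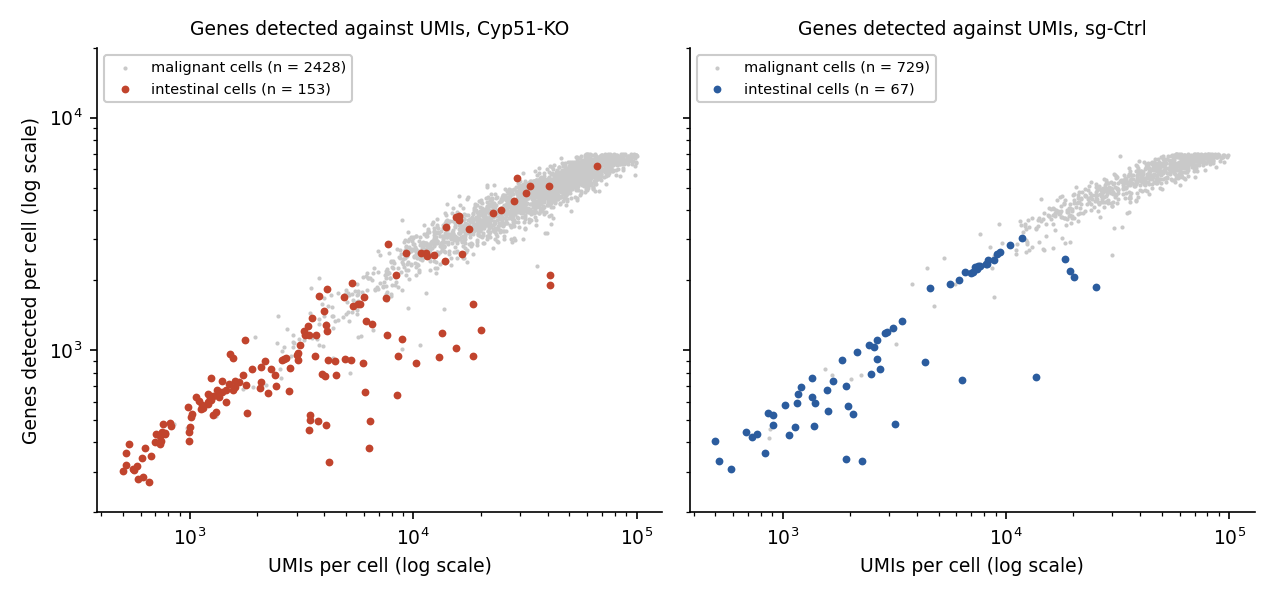
Genes detected against UMIs per cell (both log scales), 1 point for each cell, intestinal cells in color over malignant cells in grey, in Cyp51-KO (left) and sg-Ctrl tumors (right). Most intestinal cells continue the malignant band to lower UMIs, a minority lies below it, and the sg-Ctrl cells between 6184 and 11781 UMIs form a short line from 2007 to 3044 genes.

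Mitochondrial UMIs at equal depth were lower as well. Against malignant cells of the same bin, the median difference was -0.47 percentage points in Cyp51-KO tumors (-0.62 to -0.13, 82 cells), where 51 of the 82 cells were lower. It was -1.37 percentage points in sg-Ctrl tumors (-2.63 to 0.03, 7 cells), and -1.02 (-1.55 to -0.40) for the 35 cells set against malignant cells of both groups. Across cells, UMIs and mitochondrial percentage had a Spearman correlation of 0.28 in the 153 Cyp51-KO and 0.08 in the 67 sg-Ctrl intestinal cells, against -0.44 and -0.51 in malignant cells. These are descriptions of cells pooled by group, and each cell's own UMI total enters both of its values.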

How the data were processed

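One table from single-cell RNA sequencing of CT26 tumors was used, with 1 line for each cell. The paper's methods, with processing notes from the submitters, name Cell Ranger 7.0 for alignment (genome GRCm38) and Seurat 4.2.0 under R 4.2.0 for all later steps by the authors. Cells were removed with fewer than 200 or more than 7000 genes, fewer than 500 or more than 100000 UMIs, or over 5% mitochondrial UMIs, as were small clusters of sg-Ctrl cells. The deposited values were raw counts of UMIs per cell, the number of genes detected (another whole number per cell), and the mitochondrial percent computed by the authors. Mitochondrial genes were kept out of the variable genes, and the mitochondrial percentage was regressed out before clustering. Other text and number columns deposited were the group and cluster names, used unchanged. The normalized totals were not used. The sources used here say nothing of doublets, and none were called.

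Groups were taken from the start of each cell name, 51V or NCV, which also starts the sample titles and matches the group names CYP51KO and WT of the table. Shares carry exact binomial intervals and medians exact intervals from ordered values. Genes and mitochondrial percentages were compared in bins of 0.2 in log10 UMIs with at least 10 reference cells, since cells could not be thinned to equal UMIs without counts per gene. The binning was tested on simulated data. The limit a count of 0 allows was taken as 3 counts. Python 3.11.15, pandas 2.3.3, NumPy 2.4.6, SciPy 1.17.1 and Matplotlib 3.10.9 were used. No gene is named for its values. Alternatives were stricter cell filters, other denominators, bin widths and references, and the mean of log10 values. The cells, measures and alternatives were chosen with earlier results of these data known.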

Additional observations from a re-analysis of the deposited data

How the results depend on the processing

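Of 38 values recomputed under other settings, 33 kept their direction and stayed within the range of the value reported. Among epithelial cells the log2 ratio of shares ranged from -0.996 without the 5% of cells with the most UMIs to -0.036 without cells under 0.1% mitochondrial. The first setting removed nearly only malignant epithelial cells and the second mostly intestinal ones, so both shifts follow from the cells left out. No other cause was tested for any value that changed. Settings chosen after the data were seen reversed 4 values. Without the compact set of cells, the log2 ratio of median genes was 0.18 in place of -0.18, and the difference in median mitochondrial percentage was -0.20 in place of 0.46 percentage points. Without cells under 0.1% mitochondrial they were 0.23 and -0.066. Both settings drop low-mitochondrial cells, a larger part of the sg-Ctrl than of the Cyp51-KO cells, so the shift in the mitochondrial median follows from their construction. The 16 sg-Ctrl cells of the compact set each had 2007 genes or more, above the sg-Ctrl median of 890. Leaving them out therefore lowers that median by construction as well. The log2 ratio of genes at matched UMIs in sg-Ctrl tumors moved from -0.90 (7 cells) to -0.0019 (35 cells) when malignant cells of both groups were the reference. Both the cells and the reference changed there, and their parts in the shift cannot be told apart. No paired analysis was possible because no cell could be assigned to a sample, and for the same reason leaving out each library was not run. The 67 sg-Ctrl cells limit every comparison of the groups.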
